A study of Mus musculus with 4 samples.

Results

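A set of 10 genes used as surface or stromal markers of skeletal stem and progenitor cells was followed in cells of rib cartilage from C57BL/6 mice at embryonic stage E17.5. They were taken by name from the deposited table, as Lepr, Pdgfra, Cd200, Nt5e, Mcam, Nes, Clu, Thy1, Eng and Ly6a, and make up 10 of its 55228 genes. Total RNA was sequenced from 2 Trim28 KO and 2 WT samples, all of the same strain, stage and cell source. TRIM28 is a nuclear protein that KRAB-type zinc finger factors recruit to chromatin to keep genes and repeats silent. The labels do not give the way the knockout was made, the cells it affects or whether each replicate is a separate embryo.

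Skeletal stem cells are rare cells of cartilage, perichondrium and marrow that give rise to cartilage, bone and stroma, and no single gene marks them. They are isolated by combinations of surface proteins. In mouse, the sort for the most immature cells takes those with CD200 and without THY1 and endoglin, whereas stromal cells of adult marrow carry the leptin receptor and cultured mesenchymal stromal cells carry CD73 (Nt5e), THY1 and endoglin. Most of these proteins are also made by other cells, such as endothelial cells (Eng, Mcam), pericytes (Mcam, Nes), fibroblasts (Pdgfra, Thy1) and chondrocytes (Clu). Nes encodes a filament protein inside the cell and Clu a secreted protein, so these are markers of stromal cells but not surface proteins.

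The 4 libraries held 18616896 and 19903917 counts in Trim28 KO, against 20082123 and 19493435 counts in WT. Trim28 itself stood at 51.1 and 54.5 CPM in Trim28 KO and at 225 and 186 CPM in WT (counts scaled to a common library size, with trimmed-mean factors, TMM), a log2 fold change of -1.96 ± 0.20 (SE, adjusted p = 2.28e-07), which matched the labels of all libraries. Replicate 2 of Trim28 KO stood apart in transcripts tied to sex, with 19 and 7127 counts of Xist in Trim28 KO 1 and 2, against 16 and 16 counts in WT 1 and 2. Ddx3y, a gene of the Y chromosome, had 2214 and 12 counts in Trim28 KO and 1891 and 2219 counts in WT. The Trim28 KO libraries thus came from different animals, whereas nothing shows this for the WT libraries, whose spread may be technical and enters every p-value. Only Trim28 KO 2 had high Xist and low Ddx3y, so sex was not balanced between the genotypes. All 10 markers lie on autosomes, but an effect of sex on them was not tested. Log2 fold changes without Trim28 KO 2 are given below for Lepr, Pdgfra, Clu, Mcam and Eng, and for Cd200 within a range. For the other markers they appear only in the plot of fold changes with 1 library left out. Chondrocyte markers chosen for a check of the cell source were abundant in every library. Their summed level was 74005 and 93568 CPM in Trim28 KO and 99524 and 72972 CPM in WT. Of these markers, 0 of the 7 were called by edgeR (1 at an unadjusted p under 0.05, 1 by DESeq2 and 0 by limma-voom). Without Trim28 KO 2, 1 of them was called lower, Matn1, a cartilage matrix protein (-1.0, adjusted p = 0.0223).

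Of the 10 markers, 2 rose and 3 fell in Trim28 KO, and 5 did not pass the test at an adjusted p under 0.05. Cd200 and Mcam rose, and Lepr, Clu and Pdgfra fell. All 10 passed the filter on low counts. Among the 16639 genes tested, 8.64% were called higher and 8.77% lower, together 17.4%. The median log2 fold change was -0.07 over the 10 markers and -0.02 over all tested genes, and the median of its size was 0.62 and 0.33. The genotypes did not overlap in 7 of the 10 markers, 3 of them higher and 4 lower in Trim28 KO. Over all tested genes the share without overlap was 58%, made up of 28.3% higher and 29.7% lower. The 10 genes were chosen with results of these data known, so these counts describe the markers and do not set them apart from other genes.

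**Figure D1:**
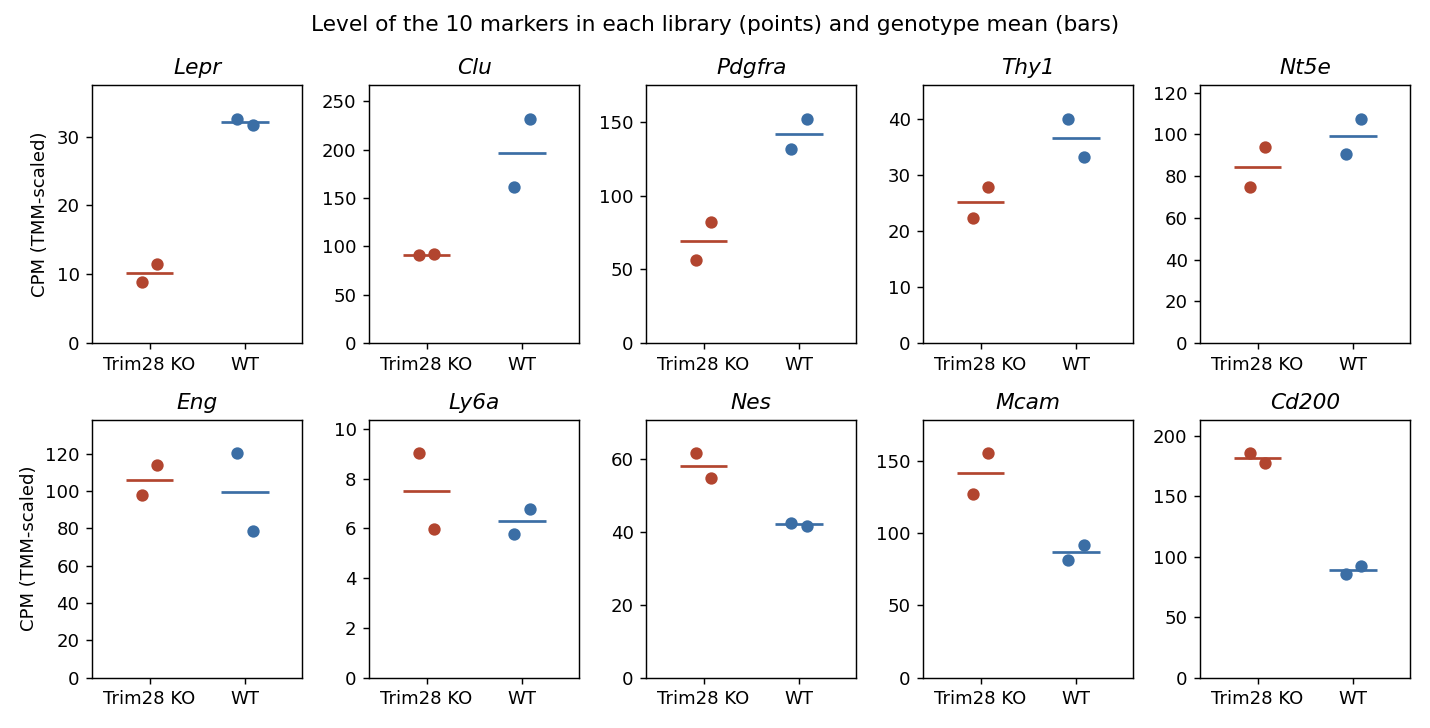
Level of each of the 10 markers in CPM (TMM-scaled, vertical axes from 0) in 2 Trim28 KO and 2 WT libraries, with points for libraries and bars for genotype means. In Lepr, Clu, Pdgfra and Thy1 both Trim28 KO points lie below both WT points, in Nes, Mcam and Cd200 above them, and in Nt5e, Eng and Ly6a the genotypes overlap.

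Sequence upstream of the transcription start is shown for Lepr, Pdgfra and Cd200, the called markers for which RefSeq (build GRCm38.p6) gave a promoter window that lay outside the gene's own annotated exons by nearly its whole length. RefSeq windows were found for 7 of the 10 markers, and Clu, Thy1 and Ly6a had no entry. Each line runs 5′ to 3′ on the gene's strand. The lines of Lepr, at chr4:101717157-101717403 (plus strand), and Cd200, at chr16:45409054-45409303 (minus strand), end just before the annotated start of the gene. The line of Pdgfra, at chr5:75152001-75152250 (plus strand), ends short of the annotated start of the gene, position 75152292. Capitals mark matches, on either strand, to any of 5 short promoter motifs that were searched. The TATA box, near which transcription can start, was searched as TATAAA. The box bound by factors of the SP family was searched as GGGCGG and is called the GC box here. The box bound by the nuclear factor NF-Y was searched by its name, CCAAT. The E-box of basic helix-loop-helix factors was searched as CACGTG. The core of the cAMP response element was searched as TGACG.
Lepr: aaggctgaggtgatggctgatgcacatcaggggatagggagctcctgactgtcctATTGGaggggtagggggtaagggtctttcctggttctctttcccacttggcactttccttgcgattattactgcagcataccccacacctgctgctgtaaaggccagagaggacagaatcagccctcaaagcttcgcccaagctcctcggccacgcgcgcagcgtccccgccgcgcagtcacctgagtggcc
Pdgfra: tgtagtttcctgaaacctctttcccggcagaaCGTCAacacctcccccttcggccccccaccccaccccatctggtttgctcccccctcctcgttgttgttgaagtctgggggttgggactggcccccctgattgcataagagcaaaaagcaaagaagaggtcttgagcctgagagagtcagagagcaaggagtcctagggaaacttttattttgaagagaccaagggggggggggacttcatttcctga
Cd200: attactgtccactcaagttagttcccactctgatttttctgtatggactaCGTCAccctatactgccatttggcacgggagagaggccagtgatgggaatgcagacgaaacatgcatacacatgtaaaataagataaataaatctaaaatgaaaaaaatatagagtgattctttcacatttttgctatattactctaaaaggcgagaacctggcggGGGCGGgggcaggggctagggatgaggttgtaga
The Lepr window held 1 CCAAT box, the Pdgfra window 1 response element core, and the Cd200 window 1 such core and 1 GC box, and no matches overlapped. Among 32851 RefSeq windows of mouse genes, a CCAAT box was present in 33.8%, a GC box in 32.7%, a response element core in 17.8%, a TATA box in 12.4% and an E-box in 6.02%. The content of G and C was 58.7% for Lepr, 54.4% for Pdgfra and 42.4% for Cd200, against a median of 52.4% over all windows. Such matches describe the letters of these windows only, and no binding was measured.

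Receptors of circulating or secreted signals come first. Lepr encodes the leptin receptor, a cytokine receptor that signals through the kinase JAK2, and marks stromal cells of adult bone marrow. Lepr stood at 8.91 and 11.4 CPM in the Trim28 KO libraries and at 32.6 and 31.7 CPM in the WT libraries. Both Trim28 KO libraries lay well below both WT libraries, and the WT libraries were nearly equal. Lepr fell by 1.66 ± 0.20 on the log2 scale, to 0.317 of the WT level (95% interval 0.236 to 0.424, adjusted p = 2.70e-06). Without Trim28 KO 2 the log2 fold change was -1.85, and without Trim28 KO 1 it was -1.48, and Lepr was called in both cases. The gene spans positions 101717404 to 101815352 of the plus strand of chromosome 4 on GRCm38, and none of its 7049 exonic bases is shared with exons of another gene. Counts were summed over isoforms, so the long signalling form and the short forms of the receptor cannot be told apart. Leprot, a neighbouring gene whose product acts on the surface level of the leptin receptor, had 1687 and 1750 counts in Trim28 KO, against 1576 and 1720 counts in WT, with a log2 fold change of 0.03 ± 0.19 (adjusted p = 0.926).

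Pdgfra encodes the alpha receptor for platelet-derived growth factors and is widely used to sort mesenchymal progenitors and fibroblasts. Pdgfra stood at 56.1 and 82.3 CPM in Trim28 KO and at 132 and 152 CPM in WT. Both Trim28 KO libraries lay below both WT libraries, but they differed from each other by 1.47-fold, more than the WT libraries (1.16-fold). Its log2 fold change was -1.04 ± 0.21 (0.487 of the WT level, 95% interval 0.360 to 0.660, adjusted p = 0.00116). The call was lost without Trim28 KO 1, the lower library, where the log2 fold change was -0.78 (adjusted p = 0.0720), and it held without Trim28 KO 2 (-1.33, adjusted p = 0.00290). Exons of Gm42802, Gm42803 and Mir7025 cover 6.5% of its 10024 exonic bases, and reads that lie there were not counted.

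Clu encodes clusterin, a secreted chaperone also called apolipoprotein J that is made by chondrocytes and stromal cells. Clu stood at 91.1 and 91.6 CPM in Trim28 KO, against 162 and 232 CPM in WT. The Trim28 KO libraries agreed closely, and the WT libraries differed by 1.44-fold. Clu fell by 1.11 ± 0.21 on the log2 scale (0.464 of the WT level, 95% interval 0.344 to 0.627, adjusted p = 5.39e-04). Without WT 2, the library with the higher level, the log2 fold change was -0.80 (adjusted p = 0.00538), without Trim28 KO 2 it was -1.11 (adjusted p = 0.0174), and the call also held without each of the other libraries.

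Next come Cd200, Mcam and Thy1, which encode surface proteins of the immunoglobulin superfamily other than the receptors above. Of these 3 markers, Cd200 and Mcam rose and Thy1 was not called. Cd200 encodes a membrane protein that restrains myeloid cells through its receptor and marks the most immature fraction in the mouse skeletal stem cell sort. Cd200 stood at 186 and 178 CPM in Trim28 KO, against 85.6 and 92.1 CPM in WT. Both genotypes were tight, and every Trim28 KO library held more than any WT library. Cd200 rose 2.04-fold (log2 fold change of 1.03 ± 0.20, 95% interval of the fold 1.55 to 2.70, adjusted p = 5.35e-04). Its log2 fold change ranged from 1.0 to 1.11 when 1 library was left out, and it was called each time.

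Mcam encodes CD146, an adhesion protein of endothelial cells, pericytes and marrow stromal progenitors. Mcam stood at 127 and 155 CPM in Trim28 KO and at 81.6 and 91.9 CPM in WT. The genotypes did not overlap, and the log2 fold change was 0.70 ± 0.20 (1.63-fold, 95% interval 1.23 to 2.16, adjusted p = 0.0154). The log2 fold change of Mcam was 0.56 without Trim28 KO 2 and 0.64 without WT 1. Its call was lost in both of these fits, each of which has 1 library in a genotype. Thy1 encodes CD90, a small surface protein with a glycosylphosphatidylinositol (GPI) anchor that is found on fibroblasts, neurons and T cells. Thy1 stood at 22.3 and 27.8 CPM in Trim28 KO and at 39.99 and 33.1 CPM in WT. The genotypes did not overlap, but the difference just missed the threshold (-0.55 ± 0.19, adjusted p = 0.0555). The interval of its fold ran from 0.519 to 0.906. Thy1 was called with the stricter filter, with the replicate block (adjusted p = 0.0453) and without WT 2 (adjusted p = 0.0277).

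The enzyme, the co-receptor and the other anchored protein were not called. Nt5e encodes CD73, a GPI-anchored enzyme that makes adenosine from AMP outside the cell. Nt5e stood at 74.9 and 93.8 CPM in Trim28 KO, against 90.6 and 108 CPM in WT, and the genotypes overlapped. Its log2 fold change was -0.23 ± 0.20 (adjusted p = 0.472), with a fold between 0.640 and 1.13. Eng encodes endoglin, a co-receptor for TGF-beta and BMP ligands that is abundant on endothelial cells. Eng stood at 98.1 and 114 CPM in Trim28 KO, against 120.2 and 78.6 CPM in WT, so both Trim28 KO libraries lay between the WT libraries. Its log2 fold change was 0.09 ± 0.21 (adjusted p = 0.812), the fold lay between 0.786 and 1.45, and the sign turned without Trim28 KO 2 (-0.01) or WT 2 (-0.15).

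Ly6a encodes SCA-1, a GPI-anchored protein of mouse stem and progenitor cells and of endothelial cells. Ly6a was the least counted marker, with 175 and 119 counts in Trim28 KO and 109 and 134 counts in WT, or 9.01 and 5.97 CPM against 5.79 and 6.77 CPM. The genotypes overlapped, with WT 2 between the Trim28 KO libraries and WT 1 below both, and counting error alone reached 9.58% of a value. Its log2 fold change was 0.25 ± 0.26 (adjusted p = 0.555, fold between 0.825 and 1.72) and turned to -0.06 without Trim28 KO 1. Of its stretches of 50 bases, 19.0% also occur in transcripts of other genes, among them Ly6c1 and Ly6i, so part of its reads may have gone uncounted. Nes encodes nestin, an intermediate filament protein used as a marker of perivascular stromal cells. Nes stood at 61.6 and 54.8 CPM in Trim28 KO, against 42.5 and 41.8 CPM in WT. The genotypes did not overlap, and the log2 fold change of 0.47 ± 0.18 was not called (adjusted p = 0.0854), with a fold between 1.06 and 1.80.

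**Figure D2:**
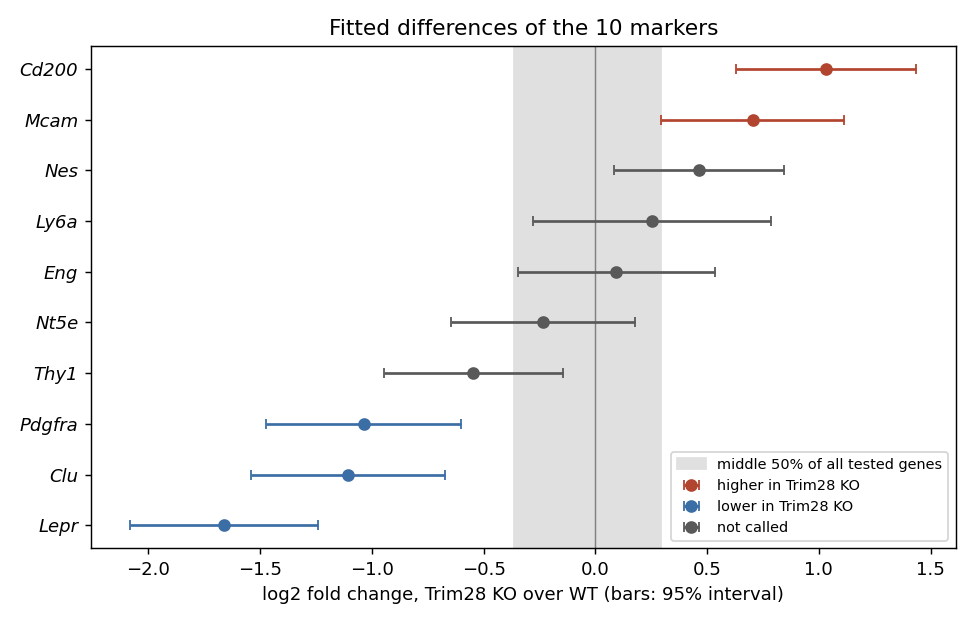
Fitted log2 fold change of Trim28 KO over WT for the 10 markers, with points for estimates, bars for 95% intervals of each gene alone, and a grey band for the middle 50% of all tested genes (-0.36 to 0.29). Lepr, Clu and Pdgfra lie lowest, Mcam and Cd200 highest, and the intervals of Nt5e, Eng and Ly6a include 0.

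**Figure D3:**
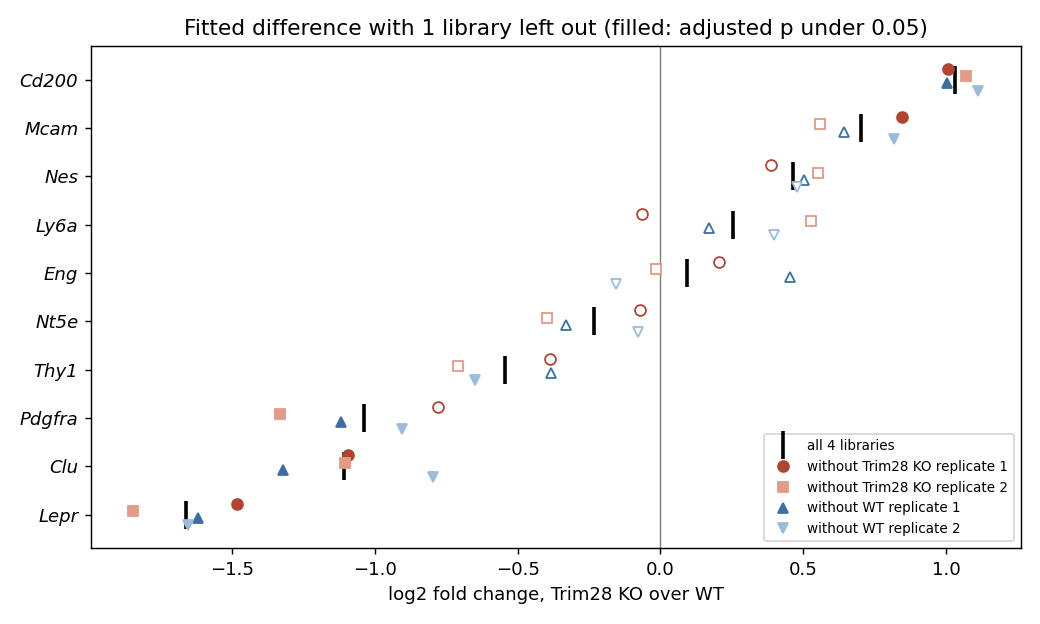
Log2 fold change of each marker with all 4 libraries (black ticks) and with 1 library left out (symbols, filled where the adjusted p was under 0.05). The symbols of Lepr, Clu and Cd200 are filled in all cases, Pdgfra has 1 open symbol, Mcam has 2, and those of Eng and Ly6a lie on both sides of 0.

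Per length, the order of the markers also differed between the genotypes. In TPM (transcript abundance, counts divided by the deposited exon length and summing to the same total in every library), the level in Trim28 KO was highest for Cd200 (142 ± 4.58, SD, n = 2) and next for Mcam (109.9 ± 22.1). Clu (69.0 ± 4.6) and Eng (68.3 ± 11.5) followed and overlapped. Nt5e (25.6), Nes (23.5), Thy1 (21.8), Pdgfra (18.1) and Ly6a (16) each overlapped with its neighbour in that order, and Lepr was lowest at 3.77 ± 0.89 TPM. In WT, Clu led at 134 ± 43 TPM. Cd200 (62.2 ± 7.6), Mcam (60.3 ± 9.3) and Eng (56.4 ± 12.9) overlapped, as did Pdgfra (33.0), Thy1 (28.2) and Nt5e (26.9). Nes (15.2 TPM) stood alone in WT, and Ly6a (12.1) and Lepr (10.6) overlapped at the low end. The 10 markers summed to 458 and 537 TPM in Trim28 KO, against 397 and 481 TPM in WT, and these sums overlapped.

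Profiles over the 4 libraries were compared for the marker with the largest rise and that with the largest fall, by the root mean square distance of centred log2 CPM among genes within 4-fold of its mean. For Cd200 the nearest of 4806 genes were Sema3d (distance 0.012), Dusp3 (0.037) and Pea15a (0.052). For Lepr the nearest of 8747 genes were Map7d3 (distance 0.031), Ikzf4 (0.050) and Ano1 (0.053). A profile of 4 values is short, and these names are a description.

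Other genes of each marker's pathway or class were counted from lists that leave the 10 markers out. In these counts and those of cell types, rises and falls are called differences, and a lost rise or fall is a lost call. In the mouse skeletal stem cell sort, Enpep, the surface peptidase known as 6C3 that marks a stromal fraction, rose to 31.4 and 27.4 CPM in Trim28 KO, against 8.82 and 6.87 CPM in WT (log2 fold change of 1.91 ± 0.21, adjusted p = 5.24e-07). The 3 other tested genes of that panel were not called. They were the integrin gene Itgav (-0.37), Tek, the endothelial angiopoietin receptor (-0.41), and Ptprc, the leukocyte antigen CD45 (0.47). Of 12 other mesenchymal surface genes, 4 fell and 1 rose, with a median log2 fold change of -0.24. Alcam, an adhesion protein (-1.48 ± 0.25, adjusted p = 1.71e-04), and Vcam1, an adhesion protein of marrow stroma (-1.19 ± 0.22, adjusted p = 4.42e-04), fell and were called whichever library was left out. Cd44, the hyaluronan receptor, fell less (-0.59 ± 0.19, adjusted p = 0.0322), as did Anpep (-0.61). Both lost their calls with library size alone and by DESeq2, which left 2 falls. Both calls were also lost without Trim28 KO 1 (log2 fold changes of -0.49 for Cd44 and -0.39 for Anpep). That of Cd44 was lost without Trim28 KO 2 (-0.68) or WT 2 (-0.41), and that of Anpep by limma-voom and without WT 1 (-0.49). The falls also numbered 2 without Trim28 KO 1, where the rise was lost.

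Around Lepr, 3 of 11 other marrow stromal genes fell and 1 rose, with a median of -0.47. Cxcl12, the chemokine that holds blood stem cells in the marrow, stood at 27.4 and 33.4 CPM in Trim28 KO and at 62.6 and 61.3 CPM in WT (-1.03 ± 0.19, adjusted p = 4.06e-04), whereas Grem1, a secreted BMP antagonist, rose (3.92 ± 0.23). The falls numbered 2 without Trim28 KO 1, WT 1 or WT 2. Of 11 other tested genes of leptin receptor signalling, 3 fell and none rose (median -0.16), and the falls numbered 1 without Trim28 KO 1, Trim28 KO 2 or WT 1. Socs3, the feedback inhibitor of that receptor and of other cytokine receptors, stood at 76.3 and 85.3 CPM in Trim28 KO, against 424 and 253 CPM in WT (-2.07 ± 0.24, adjusted p = 2.96e-06). Stat3, the transcription factor of the pathway, was not called (log2 fold change of -0.13), and the ligand gene Lep had too few counts to be tested. Of 6 other PDGF genes, Pdgfa, a ligand of the alpha receptor, fell (-0.68 ± 0.20, adjusted p = 0.0204). Its direction held but its call was lost without Trim28 KO 1 (log2 fold change of -0.53), Trim28 KO 2 (-0.82) or WT 1 (-0.41). With the stricter filter, 2 of these genes were called lower. The beta receptor gene Pdgfrb was not called (log2 fold change of -0.38).

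Of 7 other tested genes for clusterin receptors and extracellular chaperones, 5 rose and none fell, with a median of 1.05. Lrp8 (1.48 ± 0.20, adjusted p = 1.07e-05) and Vldlr (1.05 ± 0.19, adjusted p = 3.47e-04), which encode receptors of the lipoprotein receptor family, rose and were called whichever library was left out. A fall in 1 gene, A2m, a secreted protease inhibitor (-0.60, adjusted p = 0.0824 with all libraries), was called without Trim28 KO 2 (-0.99, adjusted p = 0.0240), without WT 1, with no filter and with the replicate block. The rise also took in Apoe (1.48) and Trem2 (1.77), both abundant in macrophages, and leukocyte markers were higher in the same libraries (given with the other cell types). Of 9 other resting zone genes of the growth plate, 5 fell and 2 rose (median -0.97). They included the fall of Ucma, a cartilage matrix protein (-2.45 ± 0.26), and the falls numbered 2 without Trim28 KO 1.

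Lists tied to the remaining markers followed, with the called share over all tested genes at 17.4%. Of 14 other adhesion genes of the immunoglobulin superfamily, 3 fell and 2 rose (median 0.03), and Jam2, a junction protein, rose (0.87 ± 0.19, adjusted p = 0.00196). The rises numbered 1 without Trim28 KO 1, Trim28 KO 2 or WT 2, by DESeq2 and by limma-voom, and the falls numbered 2 without Trim28 KO 1. Cd200r1, the receptor of CD200, was not called (0.67). Of 11 other genes of extracellular ATP and adenosine, 2 fell and none rose (median -0.35), among them Alpl, the bone alkaline phosphatase (-1.75 ± 0.28). The falls numbered 1 without Trim28 KO 1, and 1 gene rose with library size alone and by DESeq2. Of 12 other genes of the endoglin receptor complex, 2 fell and none rose (median -0.21), led by the co-receptor gene Tgfbr3 (-1.18 ± 0.20), and the falls numbered 1 without Trim28 KO 1, Trim28 KO 2 or WT 1, with the stricter filter and by DESeq2. Acvrl1, the receptor that endoglin assists in endothelial cells, was not called (0.19). Of 10 other tested relatives of Ly6a, 2 rose and 1 fell (median 0.23). Lypd3, which encodes a GPI-anchored surface protein of the same family, had 244 and 178 counts in Trim28 KO, against 3 and 3 counts in WT. The scaled counts of Trim28 KO were 69.0 times those of WT. Counting error alone allows 31.5 to 189 (exact 95% interval), the fitted log2 fold change was 6.05 ± 0.42 (adjusted p = 3.06e-10), and it was called whichever library was left out. Lypd6, another family member, fell (-1.73 ± 0.33, adjusted p = 5.41e-04), and Ly6e rose (0.65 ± 0.19, adjusted p = 0.0212). The direction of Ly6e held but its call was lost without Trim28 KO 1 (log2 fold change of 0.57), Trim28 KO 2 (0.74) or WT 2 (0.60). The falls in this family numbered 2 with no filter and 0 with the stricter filter, which Lypd6 did not pass. Ly6c1, which shares sequence with Ly6a, was not called (0.14 ± 0.23). Of 11 other intermediate filament genes, Prph rose (2.12 ± 0.41) and none fell (median -0.06). The rises numbered 2 without Trim28 KO 2 or with no filter, 3 without WT 2 and 0 with the stricter filter. Synm, an intermediate filament gene of muscle (-1.04, adjusted p = 0.0516), was called lower without Trim28 KO 2, WT 1 or WT 2 and under 6 other alternatives, and the filament gene Vim was not called (-0.06). Of 17 skeletal progenitor transcription factors, 7 fell and none rose (median -0.37). They included Gli1, a transcription factor of Hedgehog signalling (-2.01 ± 0.24, adjusted p = 1.88e-05), and Runx2, the factor needed to form osteoblasts (-1.22 ± 0.19, adjusted p = 8.83e-05). The falls numbered 4 without either Trim28 KO library, and 1 gene rose with library size alone and by DESeq2.

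Most of the markers are shared with other cell types, whose defining genes were read in the same libraries. In such bulk samples, fewer cells of a type and less RNA per cell cannot be told apart. Of 10 endothelial genes, 0 were called by edgeR whichever library was left out, 0 by DESeq2 and 0 by limma-voom, and 2 had an unadjusted p under 0.05. Their sum was 503 and 572 CPM in Trim28 KO, against 643 and 548 CPM in WT, next to the uncalled Eng and the higher Mcam. Of 9 tested pericyte and smooth muscle genes, 3 fell and 1 rose, with a sum of 714 and 957 CPM in Trim28 KO and 757 and 666 CPM in WT. The rise was in Cspg4, a proteoglycan gene that made up most of that sum, at 500.2 and 718 CPM in Trim28 KO and 422 and 348 CPM in WT, and its call was lost without Trim28 KO 2, without WT 2 and by limma-voom. Rgs5, a pericyte gene, fell (-0.73 ± 0.19, adjusted p = 0.00926), while Mcam rose. The call of Rgs5 was lost without Trim28 KO 1, where its log2 fold change was -0.54. Of 9 fibroblast genes, 1 fell (0 without Trim28 KO 1, Trim28 KO 2 or WT 2) and none rose. They summed to 370.1 and 443 CPM in Trim28 KO and 529 and 419 CPM in WT, beside the fall of Pdgfra. Of 8 Schwann cell genes, 3 fell, among them the myelin gene Mbp (-1.27 ± 0.27), and 1 rose, with a single fall without Trim28 KO 2 or WT 2, 2 falls without Trim28 KO 1, and no rise without Trim28 KO 1. The rise was in S100b, which cartilage also expresses and which made up most of that list's sum (369.8 and 292 CPM in Trim28 KO, 200.4 and 182 CPM in WT). Of 7 osteoblast genes, 6 fell and none rose. Their sum was 8477 and 12263 CPM in Trim28 KO and 38432 and 22198 CPM in WT. Lepr, Clu and Pdgfra were also lower in Trim28 KO. Within WT, the sum was higher in WT 1, and Clu and Pdgfra were higher in WT 2. Genes of the list went both ways within WT. Alpl stood at 240 and 190 CPM in WT 1 and 2, and Ibsp, a bone matrix protein, at 582 and 692 CPM. Ibsp fell most in Trim28 KO (-2.19 ± 0.22). Col1a1 made up most of that sum, at 8258 and 11921 CPM in Trim28 KO and 37379.7 and 21087 CPM in WT, and its call was lost without Trim28 KO 1 (adjusted p = 0.0507). Bglap, the osteocalcin gene (1.19, adjusted p = 0.0733), was called higher without WT 2 (adjusted p = 0.0162) and with no filter. Of 6 tested leukocyte genes, 4 rose, among them the macrophage gene Adgre1 (1.42 ± 0.23), and none fell, with a sum of 137 and 99.9 CPM in Trim28 KO and 68.3 and 65.8 CPM in WT, and 2 rose without Trim28 KO 1. All 4 tested erythroid genes fell (3 without Trim28 KO 1 or WT 2, 2 with the stricter filter). Of 7 skeletal muscle genes 1 rose and 1 fell, the rise being lost without Trim28 KO 1 or with the replicate block and the fall without Trim28 KO 2, and 2 rose without Trim28 KO 2, WT 1 or WT 2. No listed gene of these cell types was at 0 in every library. The part of these cell types in the differences of the markers was not tested.

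**Figure D4:**
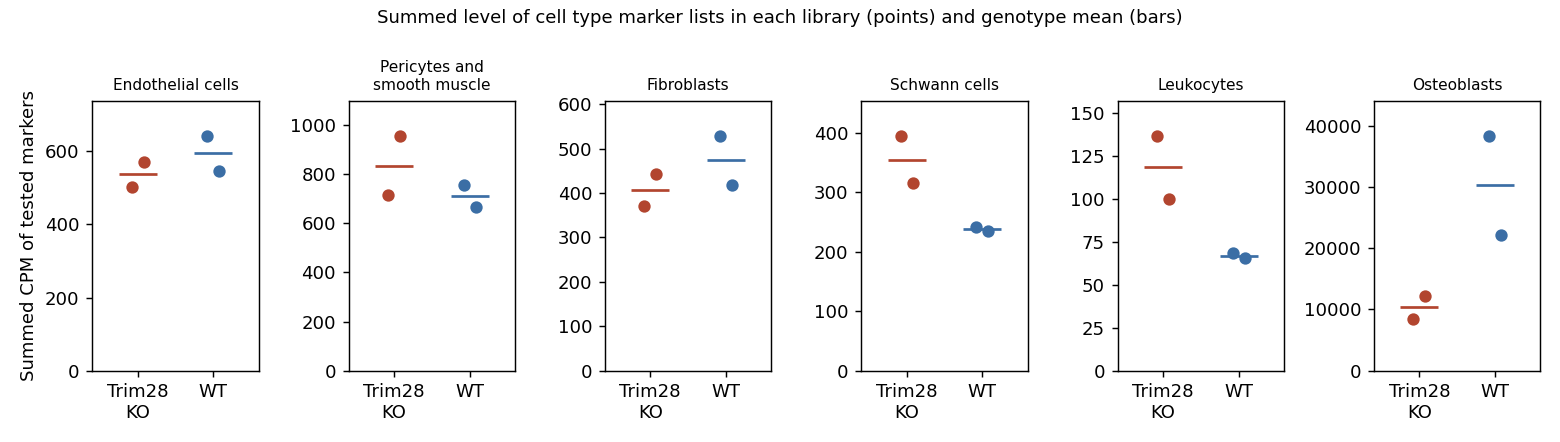
Summed CPM (TMM-scaled, vertical axes from 0) of the tested genes of 6 cell type lists in each library (points), with genotype means (bars). The osteoblast sums of both Trim28 KO libraries lie below those of WT, the leukocyte and Schwann cell sums lie above, and the other sums overlap.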

How the data were processed

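RNA of 2 Trim28 KO and 2 WT samples was sequenced. Values in the deposited table are unnormalised counts. Per the file headers, featureCounts 1.6.4 assigned paired-end fragments to exons of GENCODE release M23 (mm10), with totals given by gene name. No option was set for strand, so reads of overlapping antisense genes are not separated, and fragments that map to several places or touch several genes went uncounted. The aligner is not given in the sources used here. Annotation came from GENCODE release M21 on GRCm38, whose exon lengths equalled the deposited ones for all 10 markers.

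Genes were kept by filterByExpr (16639 of 55228), scaled by TMM and tested with the quasi-likelihood method of edgeR 4.0.16 (with limma 3.58.1 and R 4.3.3), with robust dispersion and no covariate. Benjamini-Hochberg adjustment covered all tested genes, and a gene was called under 0.05. Standard errors are the log2 fold change over the root of F. The steps were tested on simulated counts, where most changed genes were recovered and the share of false calls was somewhat above the nominal level. Those counts were drawn with dispersions fitted to these data and held no difference of sex. Changes as small as that of Mcam were not simulated, so recovery of such changes is not known. A count of 3 corresponded to 0.149 to 0.161 CPM, and counting errors cover counting only. Counts of replicates differed beyond sampling noise, with a chi-square per degree of freedom of 24.6 in Trim28 KO and 30.6 in WT.

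The markers and 22 gene lists were chosen with earlier results of these data known. Named genes are all markers and Trim28, and, where a result turns on them, some of the 4 genes with the smallest p-values in each list, sequence neighbours of a marker and profile neighbours. Stat3, Lep, Pdgfrb, Cd200r1, Acvrl1, Vim, Anpep, A2m, Col1a1, Bglap, Ddx3y and Xist were chosen after their values were seen. Alternatives were leaving out each library, a replicate block, scaling by relative log expression or by library size, and omitting leukocyte, muscle and erythroid genes. Others were no filter, at least 5 CPM in 2 libraries (the stricter filter), limma-voom and DESeq2 1.42.0. Genes below the stricter filter, among them Lypd6 and Prph, were not tested with it.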

Additional observations from a re-analysis of the deposited data

How the results depend on the processing

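Of 120 marker values under the alternatives, 111 kept their direction and their side of the threshold. Lepr, Clu and Cd200 were called under every alternative tried, with log2 fold changes from -1.85 to -1.48, -1.32 to -0.80 and 1.0 to 1.11. Leaving out 1 library moved Pdgfra between -1.33 and -0.78, Mcam between 0.56 and 0.85, Thy1 between -0.71 and -0.38, Eng between -0.15 and 0.45 and Ly6a between -0.065 and 0.53. It left 1 to 2 markers higher (2 with all libraries), 702 to 1442 of all genes higher (1438), 572 to 1406 lower (1460), and 27 to 45 genes of the lists lower (48), the lowest counts of genes and of list genes without Trim28 KO 1. These counts of list genes include the markers that are in the lists. Thy1 was called with the stricter filter (-0.57, adjusted p = 0.0393) and with the replicate block (-0.55, adjusted p = 0.0453), which changed no other marker's call. The labels do not say that a replicate number marks a shared litter or batch, and deviations of same-numbered libraries had a correlation of -0.09 across genes, so the block was not used for the values reported. With 1 library left out, the lone library of a genotype is assumed to vary like the others. The causes of these changes were not tested. With 2 libraries per genotype, changes of the size seen in Nt5e, Eng and Ly6a could not be told from 0.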
